A study of Homo sapiens with 24 samples.

Results

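The miR-17-92 cluster is a group of 6 microRNA hairpins carried on the primary transcript of MIR17HG. Its products were followed here through knockdown of the nuclear proteins SFPQ and NONO and of the long noncoding RNA NEAT1. The members are the 10 mature products miR-17-5p, miR-17-3p, miR-18a-5p, miR-18a-3p, miR-19a-3p, miR-20a-5p, miR-20a-3p, miR-19b-1-5p, miR-19b-3p and miR-92a-3p. They were chosen by name and position, from 2652 mature miRNAs in the count tables. Where a product is counted at more than 1 locus, its row on chromosome 13 was used. All 10 passed the filter on low counts, which kept 626 miRNAs.

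SBC-3, a line established from a human small cell lung cancer and labelled wild type, received 10 nM of an oligonucleotide by reverse transfection and was harvested 72 h later. The 8 groups each held 3 libraries. With a control siRNA (siCtrl) as reference, SFPQ was targeted by siSFPQ-2 and siSFPQ-3 and NONO by siNONO-3 and siNONO-4. With a control antisense oligonucleotide (ASO-Ctrl) as reference, NEAT1 was targeted by ASO-NEAT1-1047 and ASO-NEAT1-1473. Small RNA libraries were made from 100 ng of total RNA with added spike-in oligonucleotides. The labels do not say whether replicates were separate cultures, so p-values measure only the spread between these libraries, which may be technical. The targets themselves are not measured in small RNA, so their knockdown could not be checked.

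MIR17HG is an oncogenic transcript induced by MYC and often overexpressed in small cell lung cancer. In the nucleus the enzyme Drosha, with DGCR8, cuts each hairpin out of the primary transcript. In the cytoplasm Dicer turns it into a duplex, of which the guide strand is kept in Argonaute and the passenger strand is mostly lost. Targets are recognised by the seed, bases 2 to 8 of the mature strand. Members with the miR-17 seed restrain CDKN1A and the proapoptotic BCL2L11 (BIM), and the miR-18a hairpin is known for its loop, which binds hnRNP A1. SFPQ and NONO are paired RNA-binding proteins of paraspeckles, bodies that assemble on NEAT1.

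The mature sequences show which members can be told apart by short reads and which seeds they bring to a target. All 10 matched RefSeq entries (GRCh38.p14) at the coordinates of the deposited tables. The main product of each hairpin is shown 5′ to 3′ in the order of the transcript, with the seed in capitals.
miR-17-5p: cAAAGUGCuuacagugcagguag
miR-18a-5p: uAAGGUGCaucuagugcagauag
miR-19a-3p: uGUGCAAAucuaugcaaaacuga
miR-20a-5p: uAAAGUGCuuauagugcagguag
miR-19b-3p: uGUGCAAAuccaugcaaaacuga
miR-92a-3p: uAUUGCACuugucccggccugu
The opposite arms that were members carry 4 other seeds, again in capitals.
miR-17-3p: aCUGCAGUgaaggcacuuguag
miR-18a-3p: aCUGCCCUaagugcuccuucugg
miR-20a-3p: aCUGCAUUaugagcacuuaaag
miR-19b-1-5p: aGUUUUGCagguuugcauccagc

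Among the main products there were 4 seeds. miR-17-5p and miR-20a-5p share AAAGUGC, miR-19a-3p and miR-19b-3p share GUGCAAA, miR-18a-5p has AAGGUGC and miR-92a-3p has AUUGCAC. Positions in the following differences are counted from 1 at the 5′ end, with the first-named miRNA's base first. miR-17-5p differs from miR-20a-5p by C1U and C12U, and miR-19a-3p differs from miR-19b-3p by the single change U11C. The latter pair could not be separated, since the count of miR-19b-3p lay between 0.975 and 0.985 times that of miR-19a-3p in every library. The same held for 2 products of the paralog cluster on chromosome X, where miR-106a, miR-18b and miR-20b lie. Their sequences differ from the members' as follows.
miR-18b-5p: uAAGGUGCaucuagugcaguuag
miR-20b-5p: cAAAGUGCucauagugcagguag
miR-18b-5p differs from miR-18a-5p by A20U and had 0.995 to 0.998 times its count. miR-20b-5p differs from miR-17-5p by U10C and C12U and had 0.908 to 1.01 times its count. miR-18b-3p, from the same paralog cluster, followed miR-18a-3p at 0.822 to 0.908 times its count in every library, outside the 10% margin used for the others but within a narrow range. The values of miR-17-5p, miR-18a-5p, miR-18a-3p, miR-19a-3p and miR-19b-3p are therefore uncertain, since reads may be shared with a similar miRNA. miR-106a-5p differs from miR-17-5p by C1A only, yet had 0.0174 to 0.0330 times its count.

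MIR17HG spans chromosome 13, 91347820 to 91354579, on the plus strand of hg38 (GENCODE v29). In their order along it, the members are listed in the tables as MIMAT0000070 (miR-17-5p), MIMAT0000071 (miR-17-3p), MIMAT0000072 (miR-18a-5p), MIMAT0002891 (miR-18a-3p), MIMAT0000073 (miR-19a-3p), MIMAT0000075 (miR-20a-5p), MIMAT0004493 (miR-20a-3p), MIMAT0004491 (miR-19b-1-5p), MIMAT0000074 (miR-19b-3p) and MIMAT0000092 (miR-92a-3p). They lie between 91350618 and 91351382. Each is exonic in 2 of the 3 annotated transcripts and intronic in the other. From the first base of miR-17-5p, miR-18a-5p starts 138 bases downstream, miR-19a-3p 321, miR-20a-5p 454, miR-19b-3p 627 and miR-92a-3p 743. miR-19b-3p and miR-92a-3p are also encoded on chromosome X, and the deposited tables gave both loci nearly the same count. The X locus had 1.001 to 1.002 times the count of the chromosome 13 locus for miR-19b-3p and 0.9987 to 0.9996 times for miR-92a-3p. Reads therefore do not say which locus made these 2 miRNAs.

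The libraries held 2038237 to 4279463 miRNA counts and 45784 to 136178 spike-in counts, and the members took 8.24% to 17.4% of the miRNA counts. Levels are given as CPM, counts per 1000000 miRNA counts, on library sizes scaled by TMM, edgeR's trimmed mean of M values. Libraries also differed within groups in base composition. Over 545 tested miRNAs outside the cluster, the deviation of log2 CPM from its mean rose with GC content by 0.20 per 10 percentage points in siCtrl replicate 1, against -0.09 and -0.11 in replicates 2 and 3. In ASO-NEAT1-1047 replicate 3 the slope was 0.15, against -0.07 in both other replicates. Replicates 1 to 3 ran at -0.15, 0.11 and -0.05 with siSFPQ-2 and at -0.01, 0.14 and 0.07 in ASO-Ctrl. Of the neural and neuroendocrine markers, miR-9-5p (46770 to 106862 CPM) and miR-7-5p (6849 to 19908 CPM) were abundant in every library and miR-375-3p was not (0.257 to 8.55 CPM), and the liver marker miR-122-5p had 0 counts in all 24. Of 21 marker miRNAs listed for 5 tissues, 17 were matched by position.

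The members, all 22 or 23 bases long, differed in level by more than 100-fold. All are encoded in the same transcript, but reads of miR-19b-3p and miR-92a-3p may also come from chromosome X. The levels of miR-19a-3p and miR-19b-3p are not separate. Over the 24 libraries miR-19a-3p had a median of 37243 CPM, miR-19b-3p 36512, miR-20a-5p 33759 and miR-92a-3p 15966, and they ranked 5, 6, 9 and 22 by abundance among the 626 miRNAs tested. miR-17-5p followed with a median of 6723 CPM and miR-18a-5p with 5680. The passenger strands were rarer. miR-17-3p had a median of 1225 CPM, miR-20a-3p 308, miR-18a-3p 240 and miR-19b-1-5p 109. The lowest count of any member in any library was 192, so counting error was small beside the spread between libraries. Order along the transcript and order of abundance were not the same. The guides of the first and the second hairpin had the lowest medians of the 6, that of the third had the highest, and that of the last lay between.

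Across the 8 groups, siSFPQ-3 had the lowest mean of all 10 members and siSFPQ-2 the next lowest of 8 (the exceptions were miR-19b-1-5p and miR-92a-3p). The highest mean belonged to different groups. It was ASO-NEAT1-1473 for miR-17-5p and miR-18a-5p, ASO-Ctrl for miR-17-3p, miR-18a-3p and miR-92a-3p, and siNONO-3 for miR-19a-3p, miR-20a-5p, miR-20a-3p, miR-19b-1-5p and miR-19b-3p. Above the siSFPQ groups most neighbours in this order overlapped. For miR-18a-5p the means rose from 2561 ± 338 CPM in siSFPQ-3 (SD, n = 3, here and for all group means) and 3338 ± 339 in siSFPQ-2 to 4995 ± 1152 in siNONO-4, with no overlap between these 3 groups. From siNONO-4 up through ASO-Ctrl (5856 ± 955), ASO-NEAT1-1047 (6475 ± 1374), siNONO-3 (6602 ± 820), siCtrl (6870 ± 2564) and ASO-NEAT1-1473 (7245 ± 698), each group overlapped the next. For miR-20a-5p the same 3 groups were lowest, again without overlap between them. The means were 19389 ± 937 CPM in siSFPQ-3, 23948 ± 2822 in siSFPQ-2, 30354 ± 3418 in siNONO-4 and between 33462 and 37099 in the other 5 groups. Its siCtrl libraries (22119 to 43386 CPM) overlapped siSFPQ-2 (20840 to 26352), whereas for miR-18a-5p siCtrl lay above both siSFPQ groups. miR-92a-3p had no 2 neighbouring groups that were separate, with means from 13637 ± 1660 in siSFPQ-3 to 22485 ± 7079 in ASO-Ctrl.

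**Figure D1:**
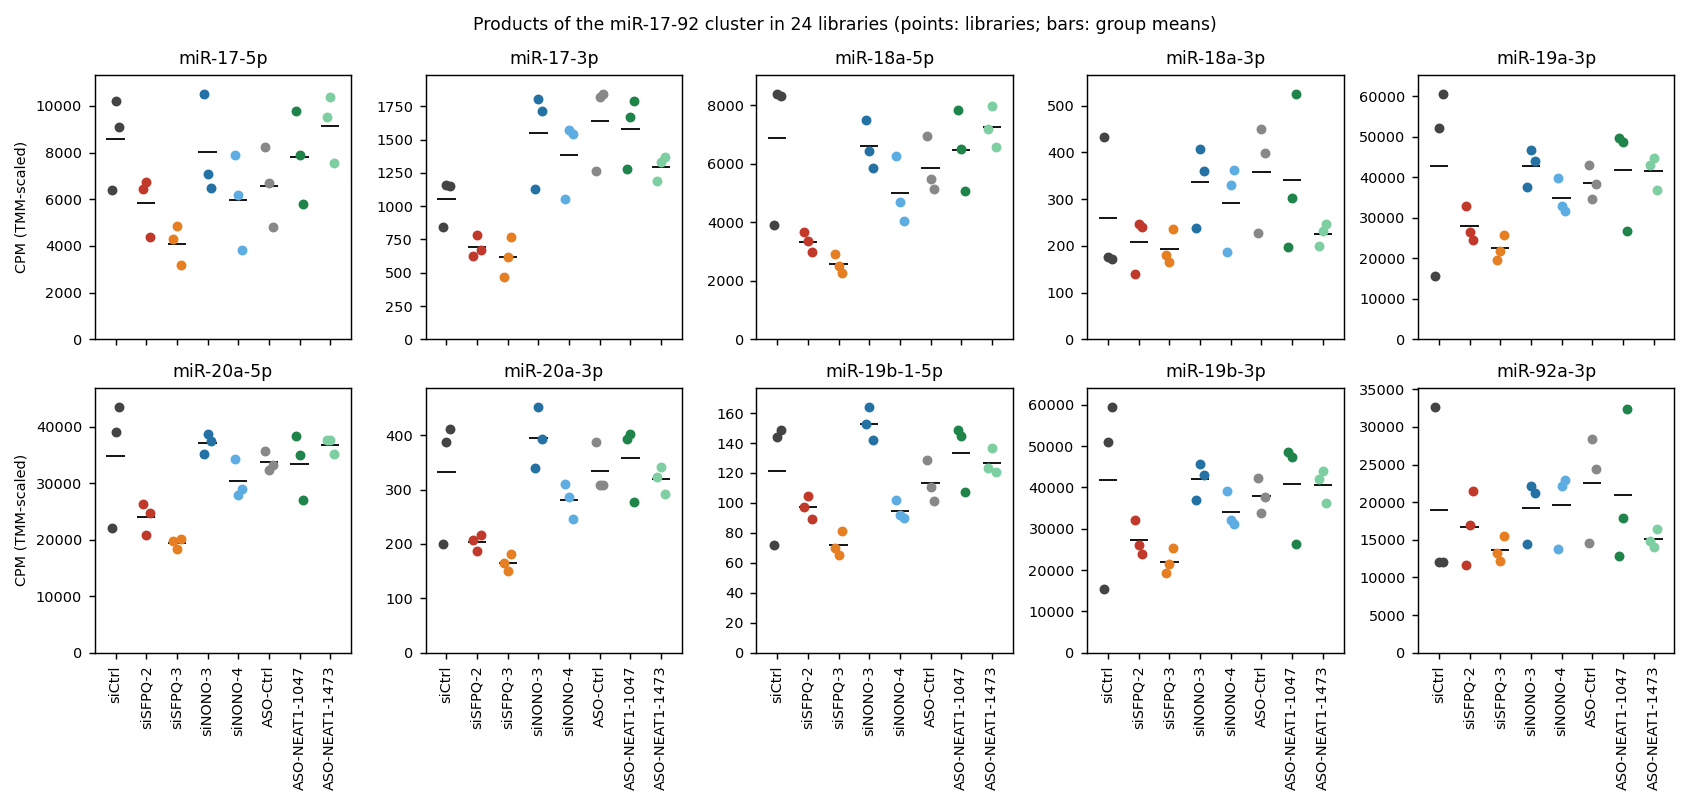
CPM (TMM-scaled library sizes, linear axes from 0) of each product in the 24 libraries; points are libraries, in replicate order within a group, and bars are group means. The siSFPQ-3 libraries have the lowest group mean in all 10 panels, and siCtrl replicate 1, the leftmost point, lies apart from replicates 2 and 3 in most of them.

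Loss of SFPQ was examined first, as the mean of both siRNAs against siCtrl. Of the 10 products, 8 fell and none rose, against a background of 22.7% of the 626 tested miRNAs called lower and 25.6% called higher. In this and later counts of members, miR-19a-3p and miR-19b-3p could not be separated, so they are not independent results. Other members also followed each other over the 24 libraries. miR-20a-5p had a Pearson r of 0.96 with miR-20a-3p and 0.95 with miR-18a-5p, but -0.13 with miR-92a-3p. Counts of members are therefore not counts of independent results. The largest fall was that of miR-18a-5p, and both arms of miR-17, miR-20a and miR-19b and the guide of miR-19a also fell. miR-18a-3p and miR-92a-3p did not pass the test. The members' median log2 fold change was -0.73, against 0.02 over all tested miRNAs. Adjusted p-values here and below come from the quasi-likelihood test of edgeR, corrected by Benjamini-Hochberg across all 626 miRNAs, with a threshold of 0.05.

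miR-18a-5p, the guide of the second hairpin, had 3909, 8382 and 8318 CPM in siCtrl replicates 1 to 3. It had 3668, 3355 and 2991 CPM with siSFPQ-2 and 2926, 2499 and 2258 with siSFPQ-3. All 6 knockdown libraries lay below all 3 controls, although siCtrl replicate 1 was only just above the highest of them. The log2 fold change was -1.23 ± 0.20 (SE, 6 libraries against 3), with an adjusted p of 1.95e-05. Its passenger miR-18a-3p had 432, 177 and 172 CPM in siCtrl, 141, 247 and 240 with siSFPQ-2 and 181, 166 and 236 with siSFPQ-3. Here the control of replicate 1 was the highest library and the other controls lay inside the knockdown range. The log2 fold change of miR-18a-3p was -0.37 ± 0.32 (adjusted p = 0.354).

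miR-17-3p, the passenger strand of the first hairpin, was the other product whose groups did not overlap. It had 846, 1161 and 1151 CPM in siCtrl, 626, 786 and 674 with siSFPQ-2 and 469, 620 and 771 with siSFPQ-3. It fell by 0.68 ± 0.19 on the log2 scale (adjusted p = 0.00562). The guide miR-17-5p, a restrainer of CDKN1A, had 6376, 10188 and 9112 CPM in siCtrl, 6422, 6741 and 4360 with siSFPQ-2 and 4306, 4833 and 3169 with siSFPQ-3. It fell by 0.81 ± 0.23 (adjusted p = 0.00638), with 4 of 6 knockdown libraries below every control. Non-overlap of this kind was found for 2 of the 10 members, and for 14.2% of all tested miRNAs in the lower direction.

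Both arms of the fourth hairpin fell. miR-20a-5p, which carries the miR-17 seed, had 22119, 39016 and 43386 CPM in siCtrl, 26352, 20840 and 24651 with siSFPQ-2 and 19715, 18332 and 20118 with siSFPQ-3. It fell by 0.69 ± 0.16 (adjusted p = 0.000890), with 4 of 6 libraries below every control. Its passenger miR-20a-3p fell by 0.86 ± 0.19 (adjusted p = 0.000737), from 200, 388 and 411 CPM in siCtrl to 207, 187 and 217 with siSFPQ-2 and 164, 150 and 182 with siSFPQ-3. Both arms thus had siCtrl replicate 1 inside the range of the siSFPQ-2 values, and all 3 siSFPQ-3 libraries below it.

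The miR-19 guides passed the test with overlapping groups. miR-19a-3p had 15539, 52153 and 60560 CPM in siCtrl, 32824, 26591 and 24425 with siSFPQ-2 and 19712, 21835 and 25855 with siSFPQ-3. No knockdown library was below siCtrl replicate 1, and all 6 were below replicates 2 and 3. The log2 fold change was -0.77 ± 0.26 (adjusted p = 0.0160), and that of miR-19b-3p, which may share its reads, was -0.77 ± 0.25 (adjusted p = 0.0153). miR-19b-1-5p, the passenger of the fifth hairpin, had a fold change of -0.54 ± 0.19 (adjusted p = 0.0207), and 2 of 6 libraries were below siCtrl replicate 1. miR-92a-3p, the guide of the last hairpin, had 32590, 12068 and 12091 CPM in siCtrl, 11669, 16986 and 21430 with siSFPQ-2 and 13264, 12194 and 15451 with siSFPQ-3. As for miR-18a-3p, replicate 1 was the highest and the other controls lay at the low end of the knockdown range. Its fold change was -0.33 ± 0.30 (adjusted p = 0.393), with a 95% interval of -0.96 to 0.31.

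**Figure D2:**
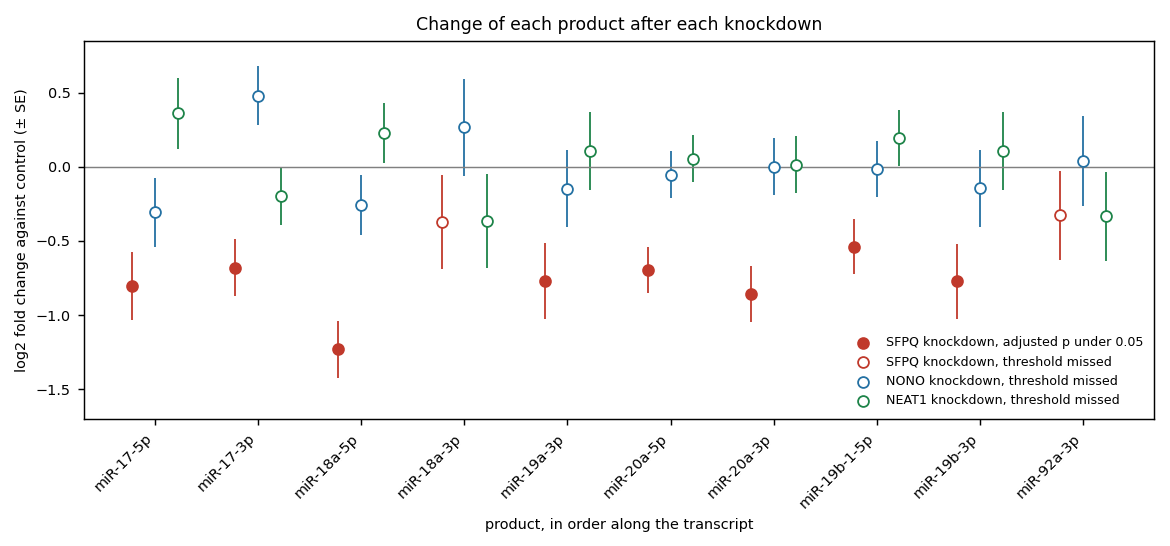
Log2 fold change of each product (± SE) against the matching control for each target, with products in their order along the transcript; filled points passed an adjusted p of 0.05 and open points did not. The 8 filled points all belong to SFPQ knockdown and are negative, with miR-18a-5p lowest at -1.23, while NONO and NEAT1 values lie between -0.37 and 0.48.

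Each SFPQ siRNA was also set against siCtrl alone. With siSFPQ-2, 4 of 10 members fell, namely miR-17-3p (-0.60 ± 0.23), miR-18a-5p (-1.04 ± 0.24), miR-20a-5p (-0.54 ± 0.18) and miR-20a-3p (-0.71 ± 0.22), against 15.5% of all miRNAs. With siSFPQ-3, 8 fell, against 21.7%, and miR-18a-5p changed by -1.42 ± 0.24 (adjusted p = 4.23e-05). All 10 point estimates were lower with siSFPQ-3 than with siSFPQ-2, by 0.11 for miR-18a-3p to 0.51 for miR-17-5p. None of these differences passed (lowest adjusted p = 0.678), and none had an unadjusted p under 0.05. That contrast called 0.639% of all miRNAs.

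The choice of scaling shifted all members together. Beside TMM, which takes most miRNAs as unchanged, the fits were repeated with the spike-in total and with the miRNA total as library size. On spike-in totals 4 members passed, namely miR-17-3p (-0.54), miR-18a-5p (-1.08), miR-20a-5p (-0.54) and miR-20a-3p (-0.72), against 14.4% of all miRNAs called lower there. On library totals only miR-18a-5p passed, with a log2 fold change of -0.80 and an adjusted p of 0.00485, and miR-18a-3p (0.12) and miR-92a-3p (0.16) turned positive. That scaling called 10.7% of all miRNAs lower, a share close to 1 in 10 members. The scalings also moved the median of all 626 miRNAs, from 0.02 with TMM to 0.21 with spike-ins and 0.47 with library totals. Relative to that median, miR-18a-5p stood at -1.25, -1.29 and -1.27, miR-20a-5p at -0.71, -0.75 and -0.73, and miR-92a-3p at -0.34, -0.32 and -0.31 in the same order. A change of library size shifts all miRNAs by nearly the same amount, so these values had to lie close together. Their closeness does not show that a fall holds under every scaling. Per 1000 spike-in counts, miR-18a-5p had 123, 308 and 330 in siCtrl, against 157, 93.3 and 91.7 with siSFPQ-2 and 144, 136 and 99.1 with siSFPQ-3. On that scale siCtrl replicate 1 lay inside the knockdown range and replicates 2 and 3 well above it.

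**Figure D3:**
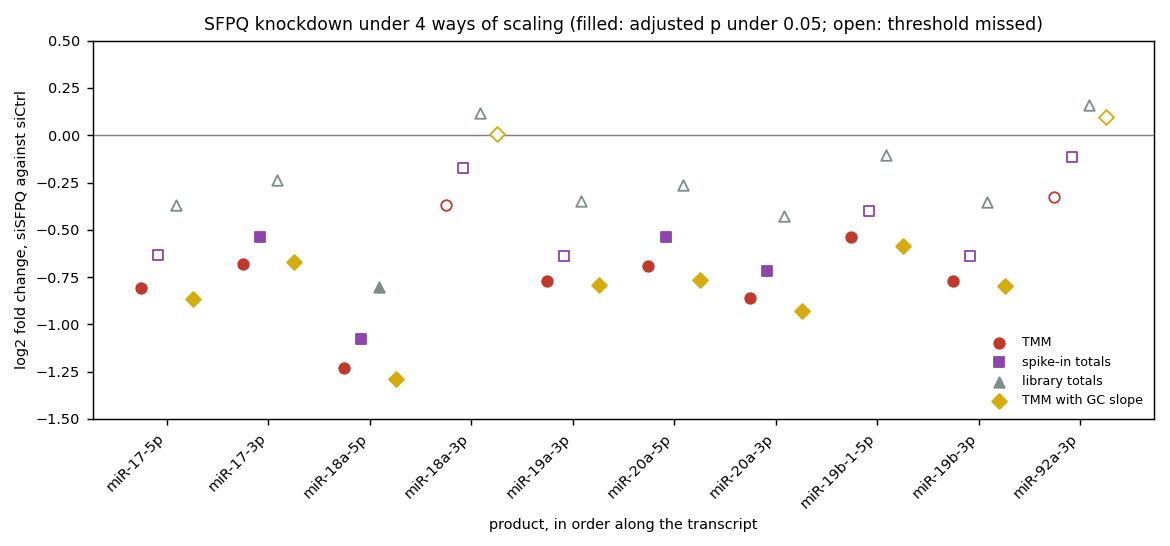
Log2 fold change of each product after SFPQ knockdown under 4 scalings: TMM, spike-in totals, library totals, and TMM with the GC slope of each library as a covariate; filled symbols passed an adjusted p of 0.05. miR-18a-5p is filled under all 4, and on library totals it is the only filled symbol.

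The members of siCtrl replicate 1 and ASO-NEAT1-1047 replicate 3 are given beside their GC content, whose part in these values was not tested outside the covariate fit below. Both libraries were picked for their high GC slope, so they do not stand for the others. In ASO-Ctrl, slopes of -0.01, 0.14 and 0.07 went with 14625, 28359 and 24470 CPM of miR-92a-3p. With siNONO-3 the slopes were nearly equal (0.04, 0.02 and 0.05), yet miR-92a-3p had 14432, 22100 and 21251 CPM. The members' GC content ran from 34.8% for miR-19a-3p to 56.5% for miR-18a-3p, with miR-92a-3p at 54.5%. In siCtrl replicate 1, miR-92a-3p and miR-18a-3p were above the mean of the other siCtrl libraries by 1.43 and 1.31 on the log2 scale, and the other 8 members were below it, miR-19a-3p at -1.85 and miR-19b-3p at -1.84 the farthest. At the same GC content as miR-19b-3p, 39.1%, miR-20a-5p was at -0.90. In ASO-NEAT1-1047 replicate 3 the same pair was above by 1.1 each, miR-17-3p by 0.29, and the other 7 were below. The GC slope comes from counts of the same libraries and ran from -0.09 to -0.07 with siSFPQ-3 and from 0.04 to 0.10 with siNONO-4. As a covariate it may take up part of a knockdown effect, and the parts cannot be told apart. A fit with the GC slope of each library as a covariate was chosen after the members' values were seen. In it the same number of members, 8, passed for SFPQ, against 23.2% of all miRNAs called lower. miR-18a-5p was then at -1.29, miR-19a-3p at -0.79, miR-92a-3p at 0.10 and miR-18a-3p at 0.01. Without siCtrl replicate 1, 8 members passed, with a median of -0.99, against 137 of 647 miRNAs called lower. In that fit miR-92a-3p (0.29) and miR-18a-3p (0.18) were positive without passing. Without siCtrl replicate 2, 4 passed (miR-17-3p, miR-18a-5p, miR-20a-5p and miR-20a-3p), against 18% of all miRNAs called lower. Without replicate 3, 5 passed (the same and miR-17-5p), against 19.7%.

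**Figure D4:**
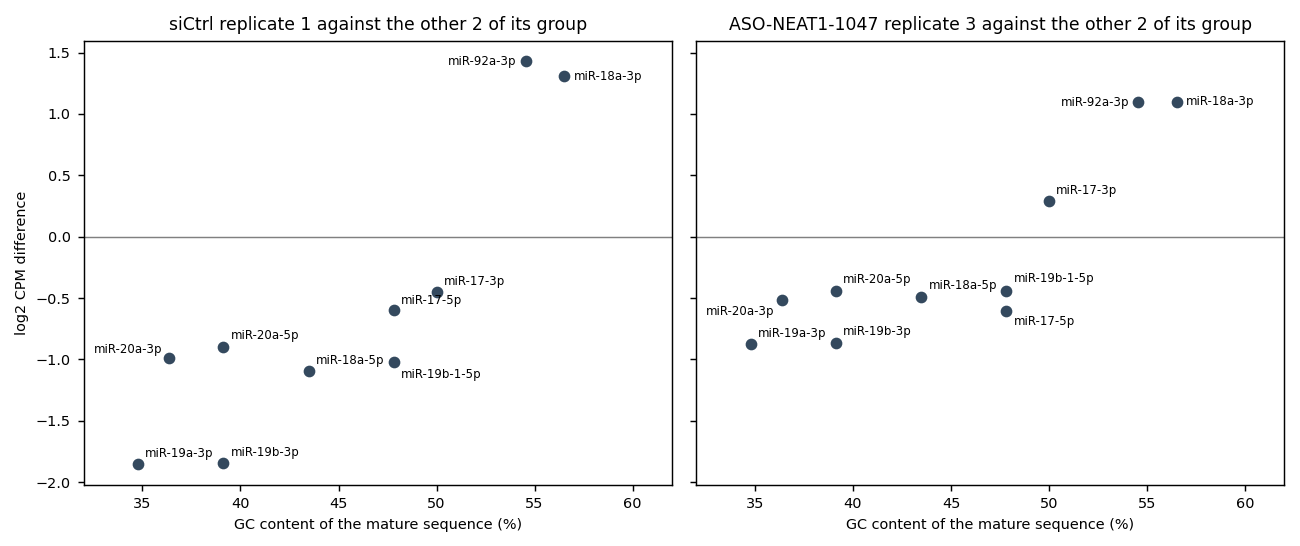
Difference in log2 CPM between a library picked for its high GC slope and the mean of the other 2 libraries of its group, against the GC content of each product (%). In siCtrl replicate 1 the 2 products with the highest GC content are above 0 and the other 8 below, and in ASO-NEAT1-1047 replicate 3 the 3 highest are above 0.

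NONO, the partner of SFPQ, was examined with the same siCtrl libraries, so its values share their controls with those above. None of the 10 members passed, and 1.6% of all miRNAs did. DESeq2 called none of the members either. The only member with an unadjusted p under 0.05 in edgeR was miR-17-3p, at 0.48 ± 0.20 (unadjusted p = 0.0249, adjusted p = 0.312). It had 1130, 1805 and 1714 CPM with siNONO-3 and 1055, 1569 and 1538 with siNONO-4, against 846, 1161 and 1151 in siCtrl. In each NONO group replicates 2 and 3 were above all controls and replicate 1 was among them. In all 8 groups miR-17-3p was lowest in replicate 1, and each siNONO library was above the siCtrl library of the same number. With replicate number as a block in edgeR's quasi-likelihood test it passed (0.47, adjusted p = 0.0473), where 12 of 626 miRNAs were called higher. The numbers were not accepted as pairing the libraries, as described below. The other members lay between -0.31 ± 0.23 (miR-17-5p) and 0.27 ± 0.33 (miR-18a-3p). For miR-18a-5p the difference was -0.26 with a 95% interval of -0.68 to 0.17, and for miR-20a-5p it was -0.05 with an interval of -0.39 to 0.28.

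Against siCtrl alone, neither NONO siRNA gave a call among the members (1 had an unadjusted p under 0.05 with siNONO-3 and 0 with siNONO-4), while 2.56% of all miRNAs passed with siNONO-3 and 0.958% with siNONO-4. Fold changes ran from -0.09 to 0.56 with siNONO-3 and from -0.52 to 0.40 with siNONO-4. miR-19b-1-5p differed most between these reagents, at 153, 164 and 142 CPM with siNONO-3 and 89.9 to 102 with siNONO-4. These groups did not overlap, but the difference of -0.69 ± 0.22 (siNONO-4 minus siNONO-3) had an adjusted p of 0.231. In that contrast 2 members and 38 of all 626 miRNAs had an unadjusted p under 0.05, and 0 passed.

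SFPQ and NONO knockdown were then compared directly, a contrast that uses no control library. Of the 10 members, 9 were lower after SFPQ knockdown, against a background of 26.8% lower and 29.7% higher. The largest difference was in miR-17-3p, at -1.16 ± 0.16 (adjusted p = 2.14e-06), followed by miR-18a-5p at -0.97 ± 0.17 (adjusted p = 2.96e-05) and miR-20a-3p at -0.86 ± 0.16 (adjusted p = 6.94e-05). In these 3 and in miR-20a-5p (-0.64 ± 0.13, adjusted p = 0.000215) all 6 siSFPQ libraries were below all 6 siNONO libraries, a separation seen in 16% of all miRNAs. miR-92a-3p was at -0.36 ± 0.25 (adjusted p = 0.221). The GC slopes of this contrast were 0.02 to 0.10 in the 6 siNONO libraries, -0.09 to -0.07 with siSFPQ-3 and -0.15 to 0.11 with siSFPQ-2. With the slope as a covariate 8 members were lower, against 28.3% of all miRNAs, and miR-18a-3p went from -0.64 (adjusted p = 0.0433) to -0.18 (adjusted p = 0.428). The count of 9 became 3 with either spike-in or library totals, against 15.2% and 14.9% of all miRNAs, and 5 without siSFPQ-3 replicate 1 or without siNONO-3 replicate 2, against 22.9% in each.

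NEAT1 knockdown was set against ASO-Ctrl. No member passed, none had an unadjusted p under 0.05, and DESeq2 called none. Among all 626 miRNAs 0% passed, and 19 had an unadjusted p under 0.05. Fold changes ran from -0.37 ± 0.32 for miR-18a-3p to 0.36 ± 0.24 for miR-17-5p. miR-18a-5p had 6939, 5494 and 5134 CPM in ASO-Ctrl, 7835, 6501 and 5088 with ASO-NEAT1-1047 and 7174, 7976 and 6585 with ASO-NEAT1-1473. The groups overlapped, and its difference was 0.23 with a 95% interval of -0.21 to 0.66. For miR-20a-5p, at 35669, 32394 and 33279 CPM in ASO-Ctrl, the difference was 0.05 with an interval of -0.28 to 0.39. Neither ASO alone gave a call among the members, and neither did the contrast between the ASOs. Each of these 3 contrasts called 0 of the 626 miRNAs, and no member had an unadjusted p under 0.05 in any of them.

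The effect of SFPQ knockdown was lower than that of NEAT1 knockdown, each against its own control, in 5 of 10 members, against a background of 11.3%. These were miR-18a-5p (-1.46 ± 0.29, adjusted p = 0.00056), miR-17-5p (-1.17 ± 0.34, adjusted p = 0.0128), miR-20a-3p (-0.87 ± 0.27), miR-20a-5p (-0.75 ± 0.22) and miR-19b-1-5p (-0.73 ± 0.27, adjusted p = 0.0495). The miR-19 guides missed the threshold (adjusted p = 0.0833 for both), and miR-18a-3p and miR-92a-3p were at -0.0037 and 0.0081. Between the controls, ASO-Ctrl minus siCtrl, no member passed, and 0.479% of all miRNAs did. miR-17-3p was at 0.64 ± 0.23 there (unadjusted p = 0.00945 in edgeR's quasi-likelihood test, adjusted p = 0.50), and all 3 ASO-Ctrl libraries were above all 3 siCtrl libraries.

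Ratios between members within a library do not depend on scaling, so the arms and the hairpins were compared in this way too. For 10 ratios and 3 targets, exact two-sided permutation tests over 6 libraries against 3 were run, with 84 arrangements and a smallest possible p of 0.0119. None of the 30 passed after Benjamini-Hochberg adjustment. Even at that smallest p, a single ratio could not pass an adjustment over 30 tests. The adjusted values therefore cannot decide whether any single ratio changed. The lowest p belonged to the arms of miR-20a after SFPQ knockdown. The log2 ratio of guide to passenger was 6.72 ± 0.066 in siCtrl (SD, n = 3) and 6.87 ± 0.082 in the 6 siSFPQ libraries, all of which were above all controls (exact p = 0.0238, adjusted p = 0.536).

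The ratio of miR-18a-5p to miR-17-5p, from neighbouring hairpins, was lower after SFPQ knockdown by 0.35 on the log2 scale, with 3 of 6 libraries below every control (exact p = 0.0714, adjusted p = 0.536). After NONO knockdown that ratio differed by 0.14 and after NEAT1 knockdown by -0.15. From the second hairpin to the last, miR-92a-3p over miR-18a-5p, the log2 ratio was 3.06, 0.53 and 0.54 in siCtrl, 1.67, 2.34 and 2.84 with siSFPQ-2 and 2.18, 2.29 and 2.77 with siSFPQ-3. All 6 knockdown libraries were above siCtrl replicates 2 and 3 and below replicate 1, and the exact p was 0.155. In ASO-NEAT1-1047 the same ratio was 0.71, 1.46 and 2.67.

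The other products of the same transcript were rare. After SFPQ knockdown miR-19a-5p (mean 13 CPM) was at -0.70 ± 0.40 (adjusted p = 0.163) and miR-92a-1-5p (22.4 CPM) at 0.10 ± 0.26 (adjusted p = 0.774). miR-92a-1-5p is made only from the chromosome 13 hairpin of miR-92a, and in the direct comparison it was higher with siSFPQ than with siNONO by 0.51 ± 0.21 (adjusted p = 0.0459). Its partner strand miR-92a-3p was at -0.36 in the same contrast.

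The paralog clusters carry the same seeds from other transcripts. In miR-106b-25, on chromosome 7, 1 of 6 tested products fell after SFPQ knockdown, miR-106b-5p with the miR-17 seed (-0.60 ± 0.19, adjusted p = 0.0143), and 1 rose, the passenger miR-25-5p (0.97 ± 0.32, adjusted p = 0.0155). miR-93-5p (-0.27 ± 0.21) and miR-25-3p (-0.39 ± 0.18), which has the seed of miR-92a-3p, missed the threshold. In miR-106a-363, on chromosome X, 3 of 5 tested products fell. Of these, miR-18b-5p (-1.23) and miR-20b-5p (-0.82) had counts within 10% of a member's and may share its reads. The counts of miR-106a-5p (-0.67 ± 0.21, adjusted p = 0.0112) were outside that margin. Other products of this cluster were nearly absent. miR-363-3p had 11 counts over all libraries, miR-20b-3p, miR-92a-2-5p and miR-363-5p had 0, and the tested miR-19b-2-5p had a mean of 4.86 CPM. For both clusters the background was 22.7% of all miRNAs called lower and 25.6% called higher. Neither cluster had a call after NONO or NEAT1 knockdown.

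Outside these clusters, the miRNAs whose log2 CPM followed the mean of the members most closely over the 24 libraries were miR-301a-5p (Pearson r = 0.92), let-7a-3p (0.90), miR-15b-3p (0.90), miR-9-5p (0.90) and miR-126-5p (0.89), out of 193 with a mean of at least 100 CPM. Over the 18 libraries without siSFPQ the same correlations were 0.67, 0.64, 0.60, 0.53 and 0.70. These 5 have a GC content of 33.3% to 40.9%, and the members 34.8% to 56.5%. These values are a description over libraries that differed in depth and base composition, and no test was made.

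Marker miRNAs of neural and other tissues are given beside these values, with no test. The summed CPM of 6 neural and neuroendocrine markers was 99285 to 113192 in siCtrl and 58348 to 79336 with siSFPQ, most of it miR-9-5p and miR-7-5p. The 3 muscle markers summed to 332 to 390 CPM in siCtrl and 113 to 202 with siSFPQ, and the 4 stroma and vessel markers, mostly miR-199a-3p, to 33092 to 50229 and 23975 to 35713. The 3 blood markers summed to 49.5 to 104 CPM and 27.1 to 65.7, and here and for stroma the ranges overlapped. Not all markers had lower means with siSFPQ. The mean of miR-375-3p was 0.669 CPM in siCtrl and 5.63 with siSFPQ, that of miR-129-5p 28.3 and 34.2, that of miR-153-3p 2.16 and 2.72, that of miR-206 5.28 and 6.13, that of miR-145-5p 2.47 and 4.15 and that of miR-142-5p 6.72 and 7.27. The part of these differences in the members' values was not tested. A lower level per cell and a smaller share of cells making the cluster cannot be told apart in bulk RNA.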

How the data were processed

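Small RNA counts of 24 libraries were used. The authors deposited whole-number counts for each mature miRNA locus and spike-in. Per the file headers, featureCounts 2.0.3 made them. DESeq2 1.38.1, UMI-tools 1.1.1, Bowtie 1.3.0, Trimmomatic 0.39 and the build hg38 are named, without parameters, per the submitters' processing notes. The sources used here do not give whether reads with the same molecular identifier were collapsed, so counting error is a lower limit. The tables held 2883 loci of 2652 miRNAs and 52 spike-ins. Names were assigned by position within 3 bases to 2364 miRNAs. Members with another locus were read at MIR17HG, and other miRNAs at the locus with the largest total.

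Tests used edgeR 4.0.16 under R 4.3.3 with limma 3.58.1: filterByExpr with a minimum count of 10, which kept 626 miRNAs and 99.97% of counts, TMM, 1 term per group (16 residual degrees of freedom), and the quasi-likelihood test, with Benjamini-Hochberg correction across the 626. A knockdown is the mean of its 2 reagents minus the control. The standard error is the fold change over the square root of F, and 95% intervals use the residual degrees of freedom. Ratios used counts plus 0.5. DESeq2 1.42.0 was an alternative, and the GC covariate was added after seeing the data. On simulated counts of the same 626 miRNAs, 70.1% of 2-fold and 26.9% of 1.5-fold changes were recovered for SFPQ, 71.6% and 20.9% for NONO, and 74.6% and 31.3% for NEAT1. These counts were drawn independently for each miRNA and library at edgeR's trended dispersion. They lack the GC slopes and other shifts that miRNAs of a library share here, so these shares may not hold for the members.

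Named were the 10 members, the other products of their transcript, calls in the paralog clusters, miRNAs with counts within 10% of a member's, and the 5 most alike in pattern; other paralogs named with values were picked after these were seen. The members and lists were chosen with earlier results of these data known. miR-124-3p, miR-451a, miR-486-5p, miR-150-5p and miR-106a-3p were not matched and are not analysed here.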

Additional observations from a re-analysis of the deposited data

Results flagged for a closer look

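Differences between knockdowns passed edgeR's quasi-likelihood test in 9 members for SFPQ against NONO and in 5 for SFPQ against NEAT1. With siSFPQ minus siNONO as log2 difference, miR-17-5p was at -0.50 (adjusted p = 0.0312), miR-17-3p at -1.16 (2.14e-06), miR-18a-5p at -0.97 (2.96e-05), miR-18a-3p at -0.64 (0.0433) and miR-19a-3p at -0.62 (0.0164). miR-20a-5p was at -0.64 (0.000215), miR-20a-3p at -0.86 (6.94e-05), miR-19b-1-5p at -0.52 (0.00581) and miR-19b-3p at -0.63 (0.0153). For the SFPQ effect minus the NEAT1 effect, each against its own control, miR-17-5p was at -1.17 (0.0128), miR-18a-5p at -1.46 (0.00056), miR-20a-5p at -0.75 (0.0168), miR-20a-3p at -0.87 (0.0218) and miR-19b-1-5p at -0.73 (0.0495). miR-18a-3p passed against NONO but was not called against siCtrl (-0.37) or in the comparison with NEAT1 (-0.0037). Against NONO it also missed the threshold on library totals (-0.28), on spike-in totals (-0.39), with a mean of at least 10 CPM (-0.52) and with the GC slope as a covariate (-0.18), and in 7 of 12 fits that left out a library (-0.73 to -0.49 over the 12). No group has more than 3 libraries, so single libraries were not tested as outliers.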

How the results depend on the processing

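For SFPQ against siCtrl, RLE size factors, DESeq2, a mean of at least 10 CPM, the locus with the largest total and the GC slope each gave 8 members lower, and no filter gave 7. Of all miRNAs, 143 of 626 were called lower with RLE and 142 with DESeq2 and with the largest locus. The share was 28.5% with a mean of at least 10 CPM and 23.2% with the GC slope, and 128 of 2102 were lower without a filter. Only the groups compared gave 5 (93 of all 589 miRNAs), spike-in totals 4 (14.4%) and library totals 1 (10.7%). Leaving out each library in turn gave 4 to 8. For SFPQ minus NONO the count of 9 became 3 on library totals (14.9% of all miRNAs) and 3 on spike-in totals (15.2%). It became 5 with a mean of at least 10 CPM (28.5%), and leaving out each library gave 5 to 9. NONO and NEAT1 gave 0 under every setting, except 1 for NONO with the replicate block (miR-17-3p, 0.47, adjusted p = 0.0473). With the replicate block SFPQ gave 8 (150 of all 626 miRNAs lower) and SFPQ minus NONO 9 (178 of 626). Same-number correlations of deviations were -0.19, -0.03 and 0.04 for SFPQ with siCtrl, 0.54, -0.15 and 0.48 for NEAT1 with ASO-Ctrl and 0.39, 0.05 and 0.32 for SFPQ with NONO, so the numbers missed the rule for pairing (every pair over 0.1). Among single fold changes outside the left-out libraries, 335 values kept sign and side of the threshold, 34 called values missed it, and 30 that had not passed changed sign without passing. No called value changed sign. In the 60 repeats of the ratios with another prior count or locus, no sign changed. The side of the threshold did not change either, but a single ratio could not have passed it, so this carries no weight. With each library left out in turn, 334 fold changes kept sign and side, 34 called values missed the threshold and 22 uncalled ones changed sign; of the ratios, 254 kept their sign and 16 did not. The lowest count of a member was 192, and each control had 3 libraries.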

Other observations

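Several members differed between replicate numbers alike in most groups, although no number was accepted as pairing the samples. miR-17-3p was lowest in replicate 1 in 8 of 8 groups, and miR-17-5p and miR-18a-5p were lowest in replicate 3 in 7 of 8. The log2 ratio of miR-17-5p to miR-17-3p was highest in replicate 1 and lowest in replicate 3 in 7 of 8 groups, at 2.90, 1.98 and 1.32 with siNONO-4 and 2.71, 1.88 and 1.39 in ASO-Ctrl, the exception being siCtrl with 2.91, 3.13 and 2.98. miR-18a-3p was lowest in replicate 1 in 6 of 8 groups and miR-92a-3p in 5 of 8, whereas in siCtrl both were highest in replicate 1. With siNONO-3, miR-92a-3p had 14432, 22100 and 21251 CPM in replicates 1 to 3, with siNONO-4 13740, 22153 and 22888, and in ASO-Ctrl 14625, 28359 and 24470. miR-19a-3p, with the lowest GC content, was lowest in replicate 1 in 3 groups and in replicate 3 in 4. The cause was not tested.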
